A study of Mus musculus with 6 samples.

Results

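The 10 genes described here, which mark or regulate signalling by bone morphogenetic proteins (BMPs), were followed in primary mouse cardiomyocytes in which Gdf11 had been lowered. They are the 4 ID genes (Id1, Id2, Id3 and Id4), the target genes Atoh8, Msx1, Msx2 and Bambi, and the genes of 2 secreted BMP-binding proteins, Grem1 and Bmper. They were found by name among the 54532 genes of the deposited expression table, each name matched 1 gene, and all 10 passed the filter on low values that left 15418 genes for testing. The cells were ventricular cardiomyocytes isolated from C57BL/6J mice at 1 day of age. Short hairpin RNA against Gdf11 (shGDF11) was given to the cells of 3 libraries. Control hairpin RNA, named sh-nc in one label and sh-Vector in another, was given to those of the other 3. Both groups received their hairpin at a multiplicity of infection of 200 and were harvested after 48 h. The labels number the samples of each group 1 to 3 without saying whether a number marks a culture, a repeat or a different hairpin, so the SD within a group may hold differences between hairpins. Here each is called a replicate. The labels give no hairpin sequence and leave unsaid whether the 3 samples of a group were cultured apart. The spread behind every p-value is therefore that of these samples alone and could be technical. The study's title concerns Gdf11 deficiency in heart failure and cardiac angiogenesis, and here the question is whether transcripts tied to BMP signalling differ when Gdf11 is lowered.

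BMPs are secreted ligands of the TGF-beta family that bind paired type I and type II receptor kinases and act through SMAD1, SMAD5 and SMAD9 with SMAD4. GDF11 belongs to the same family but acts mainly through SMAD2 and SMAD3. ID genes are classical direct targets of the BMP branch. ID proteins have a helix-loop-helix domain but no DNA-binding region, and they hold E proteins and other basic helix-loop-helix (bHLH) factors in inactive pairs. Msx1 and Msx2 encode homeobox repressors, and Atoh8 a bHLH factor. Bambi encodes a pseudoreceptor without a kinase domain. Grem1 encodes gremlin 1, which binds and blocks BMP ligands, and Bmper encodes a secreted BMP-binding regulator.

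Of the 10 genes, 1 rose and 3 fell in shGDF11, and 6 were not called. Id2 was the 1 that rose, and Id1, Grem1 and Bmper fell. A gene was called at an adjusted p under 0.05 in limma, a linear model of log2(FPKM + 0.5) fitted over all tested genes. FPKM is the number of fragments scaled by gene length and library depth. By the same rule 27.6% of all tested genes were called, 14.4% as higher and 13.1% as lower. Higher genes were 52.4% of these calls, or 66.3% after rescaling to TPM, which left the calls of the 10 as they were. Control and shGDF11 values were fully apart for the 4 called genes, and for 45.8% of all tested genes. The median log2 fold change of the 10 was -0.14, and that of all tested genes was 0.01. These 4 calls were also made when any 1 of the 6 libraries was left out.

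**Figure D1:**
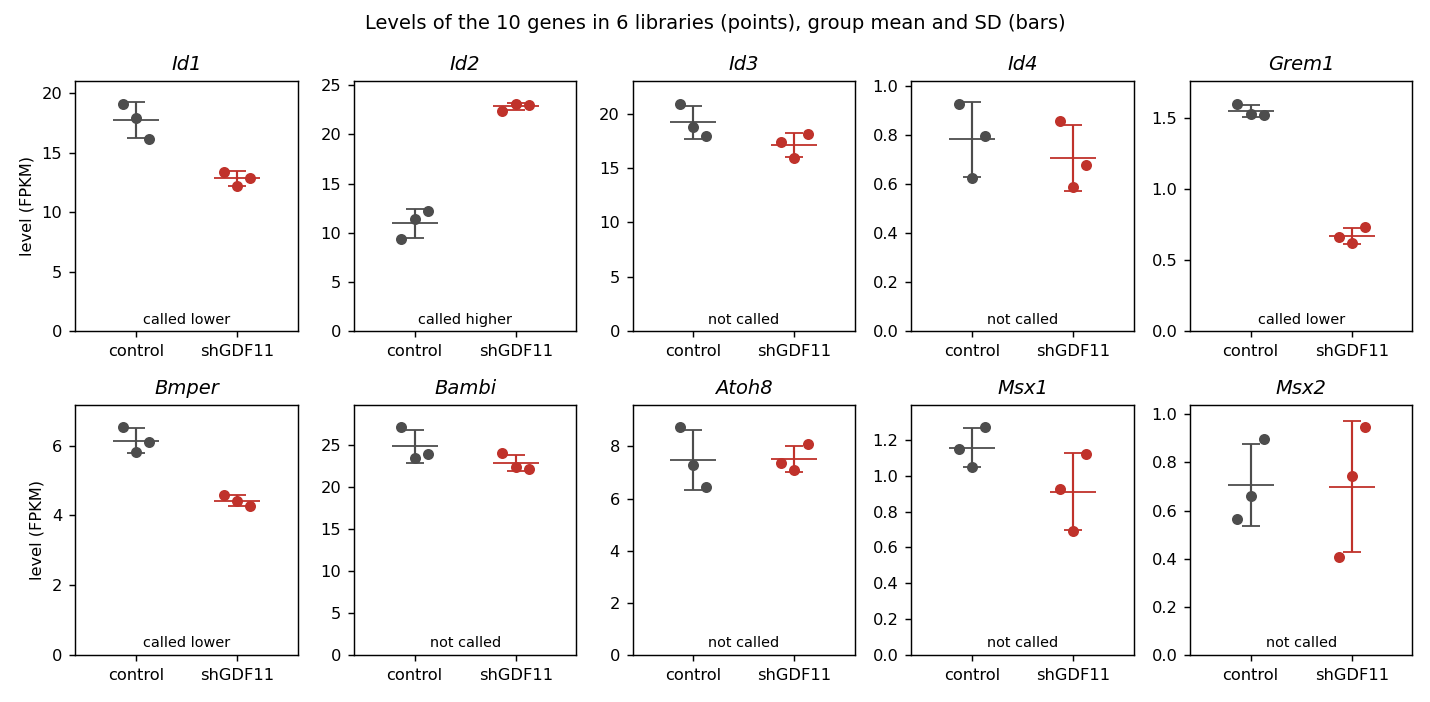
FPKM of each of the 10 genes (vertical axes, starting at 0) in the 3 control and 3 shGDF11 libraries, with points for libraries, a long bar for the group mean and whiskers for 1 SD. The points of the groups are apart for Id1, Id2, Grem1 and Bmper and overlap for the other 6 genes.

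The libraries held 15267083 to 16152910 reads in listed genes. Control replicate 1 stood apart from the other controls, at a chi-square per degree of freedom over genes of 13.6 and 18.3 against control replicates 2 and 3, where those differed by 5.45 and the shGDF11 libraries by 3.42 to 3.98. Without it the log2 fold changes of Id2, Id1, Grem1 and Bmper were 0.92, -0.39, -0.79 and -0.39, all still called by limma. Gdf11 was at 2.76, 2.30 and 2.31 FPKM in the control libraries and at 0.614, 0.601 and 0.778 FPKM in the shGDF11 libraries. Markers of cardiomyocytes were high in both groups, with a summed level of 4290 to 4940 FPKM in control and 3990 to 4270 FPKM in shGDF11. Of these 8 markers 4 fell and 1 rose, but 2 fell when any library other than control replicate 1 was left out. None rose without shGDF11 replicate 2 or 3, and 2 rose without control replicate 1. Erythroid markers summed to at most 0.89 FPKM. Markers of other cell types were also detected, and the summed level of each list below differed between the groups without overlap. A summed level does not show which cells held the transcripts. Endothelial markers summed to 71.9 to 77.5 FPKM in control and 49.0 to 52.5 FPKM in shGDF11, and 7 of 9 fell. Smooth muscle and pericyte markers, whose sum is mostly Acta2, went from 1020 to 1090 FPKM down to 409 to 414 FPKM. Of these 8 markers 5 fell, among them Tagln, which passed the filter only through control (0.976 FPKM, against 0.391 FPKM in shGDF11). Leaving out control replicate 2 or shGDF11 replicate 1 left 2 of these falls, and leaving out any of control replicate 3 and shGDF11 replicates 2 and 3 left 3. On the same list Rgs5 (5.38 FPKM in control and 5.41 in shGDF11), Pdgfrb (10.8 and 11.3 FPKM) and Kcnj8 (2.9 and 3.64 FPKM) were not called with all 6 libraries. Macrophage markers summed to 159 to 183 FPKM in control and 124 to 135 FPKM in shGDF11, mostly from Lyz2 (114 and 85.3 FPKM). Of 7 tested 4 fell, or 3 without control replicate 3 or any 1 shGDF11 library. With all 6 libraries Csf1r (2.36 FPKM in control and 2.37 in shGDF11), Adgre1 (0.902 and 0.929 FPKM) and Cd68 (30.9 and 26.5 FPKM) were not called. Ptprc and Cx3cr1 were below the filter. Fibroblast markers summed to 296 to 350 FPKM in control and 375 to 392 FPKM in shGDF11, and 3 of 8 rose, or 2 without any 1 shGDF11 library. Epicardial markers summed to 26.3 to 28.2 FPKM in control and 29.4 to 30.7 FPKM in shGDF11. Of these 6 markers 2 rose and 1 fell, and the fall, that of Krt19, was not called without shGDF11 replicate 1 or 3. Of the rises, that of Upk3b (0.396 FPKM in control) passed the filter only through shGDF11 (1.17 FPKM). No marker list had a gene at 0 in all 6 libraries. In such bulk samples fewer cells of a type and less RNA per cell cannot be told apart, and the part of these cell types in the results below was not tested.

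Id2 rose to 208% of its control level. It was at 9.32, 11.4 and 12.2 FPKM in control replicates 1, 2 and 3, and at 22.4, 23.1 and 23.0 FPKM in shGDF11 replicates 1, 2 and 3. The 3 shGDF11 libraries lay within 1 FPKM of each other, all above the highest control, and control replicate 1 was the lowest library. The group means were 11 ± 1.49 and 22.8 ± 0.361 FPKM (mean ± SD, n = 3 in each group, as in all such values here). On the log2 scale this is a rise of 1.03 ± 0.099 (SE; limma adjusted p = 0.00089). The values rest on 357 to 485 reads per control library and 898 to 921 per shGDF11 library. Id2 (ENSMUSG00000020644) is at chr12:25093799-25097140, minus strand, in GRCm38, the build of all coordinates here. None of its annotated exon bases is shared with another gene, and the same holds for Id1, Id3, Grem1, Bmper, Bambi, Atoh8, Msx1 and Msx2.

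Id1 moved the other way by a smaller amount. It was at 19.1, 17.9 and 16.1 FPKM in the control libraries and at 13.4, 12.2 and 12.9 FPKM in the shGDF11 libraries. All shGDF11 libraries were below all controls, and the gap between the groups was narrower than for Id2. The means were 17.7 ± 1.5 and 12.8 ± 0.61 FPKM, or 72.5% of control, from 305 to 348 reads in control and 232 to 256 in shGDF11. Its log2 fold change of -0.45 ± 0.0787 (SE) passed at a limma adjusted p of 0.0073. Id1 (ENSMUSG00000042745) is at chr2:152736251-152737410, plus strand.

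Id3 and Id4 were not called. Id3 (chr4:136143497-136145755, plus strand) was at 20.9, 18.8 and 17.9 FPKM in control and 17.4, 15.9 and 18.1 FPKM in shGDF11. The highest shGDF11 library exceeded the lowest control. Its log2 fold change was -0.16, with a 95% interval (limma) of -0.35 to 0.03 and an adjusted p of 0.18, so the interval does not reach the size of the Id2 rise in either direction. Id4 (chr13:48261228-48266026, plus strand) was the scarcest ID transcript, at 0.926, 0.623 and 0.796 FPKM in control and 0.854, 0.587 and 0.676 FPKM in shGDF11. With 37 to 56 reads per library its log2 fold change of -0.09 had an interval of -0.48 to 0.31 (limma adjusted p = 0.73). Of its exon bases 4.44% are shared with genes of the other strand.

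The ID genes were compared within each library in FPKM, a scale that rests on 1 length per gene. The summed level of the 4 was 47.0 to 50.3 FPKM in control and 51.8 to 54.7 FPKM in shGDF11, so the total differed by little while its make-up changed. Id2 made up 18.5%, 23.4% and 25.9% of the sum in the control libraries and 41.4%, 44.6% and 42.1% in the shGDF11 libraries. Id1 made up 34.3% to 38.0% in control and 23.6% to 24.8% in shGDF11, and Id3 38.1% to 41.6% and 30.7% to 33.1%. Id4 stayed under 2% in every library. The ratio of Id2 to Id1 was 0.488, 0.638 and 0.757 in the control libraries and 1.67, 1.89 and 1.79 in the shGDF11 libraries. In FPKM, Id1 exceeded Id2 in every control library, and Id2 exceeded Id1 in every shGDF11 library. In reads Id2 exceeded Id1 in the control libraries too (357, 465 and 485 against 348, 347 and 305). The order of the 2 genes thus depends on the lengths used, 2438 bases for Id2 and 1160 for Id1. The difference in their ratio between the groups does not. On the log2 scale the ratio differed by 1.53 between the groups (-0.70 ± 0.319 in control and 0.83 ± 0.0894 in shGDF11), with an exact two-sided permutation p of 0.1, the smallest that 3 libraries against 3 allow. Since Id2 and Id1 each separated the groups in opposite directions, that p had to follow and adds nothing to their calls. Without control replicate 1 the difference was 1.36. The log2 ratio of Id1 to Id3 was -0.12 ± 0.0457 in control and -0.41 ± 0.0663 in shGDF11, lower in every shGDF11 library than in any control.

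**Figure D2:**
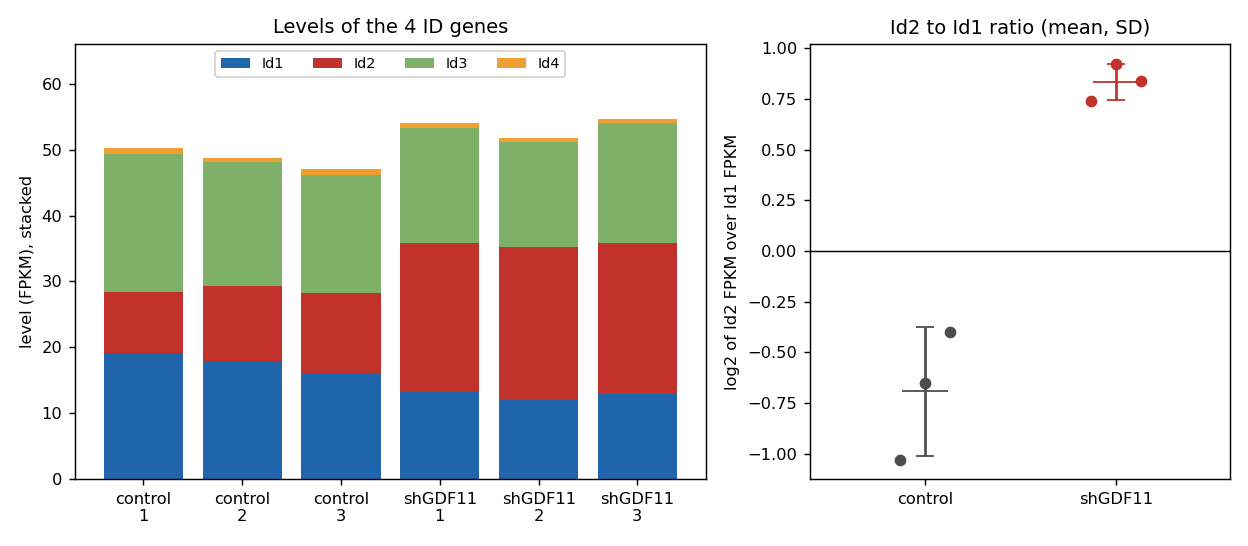
Left, FPKM of Id1, Id2, Id3 and Id4 stacked for each of the 6 libraries, with the axis starting at 0. Right, log2 of the ratio of Id2 FPKM to Id1 FPKM in each library (points) with the group mean and 1 SD. The Id2 segment is larger and the Id1 segment smaller in the 3 shGDF11 libraries, and the ratio lies below 0 in every control and above 0 in every shGDF11 library.

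The RefSeq promoter table for GRCm38.p6 held 8 of the 10 genes. Id1 and Bambi were not matched. The 250 bases before the annotated start were searched on both strands for GGCGCC and GTCTG, short sequences that SMAD proteins can bind, and for the E-boxes CAGCTG and CACGTG, which bHLH factors bind. GGCGCC was found in 3 of the 8 windows (Id2, Id4 and Grem1) and in 9.59% of all 32851 windows. GTCTG was found in 2 (Id3 and Grem1), against 42.2% of all windows. CAGCTG was in 2 (Id2 and Atoh8), against 13% of all, and CACGTG in Atoh8, against 6.02%. The Id3 and Msx2 windows lie wholly within annotated exons, so the Id3 matches are in exon sequence. The 8 windows were 61.6% to 75.6% G and C, each above the median of all windows (52.4%). The Id2 stretch is shown because Id2 was the member that rose, with the GGCGCC and CAGCTG matches in capitals. It is the part of its window that lies outside annotated exons, chr12:25096254-25096342 on the minus strand, printed 5′ to 3′. The longer annotated Id2 transcript starts further upstream, so this stretch lies in an intron of that transcript and before the start of the shorter ones, and reads per gene do not separate the 2 starts.
Id2: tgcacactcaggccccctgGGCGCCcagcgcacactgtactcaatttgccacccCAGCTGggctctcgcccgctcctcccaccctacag

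The genes of both secreted BMP-binding proteins fell. Grem1 was at 1.6, 1.53 and 1.52 FPKM in the control libraries and at 0.660, 0.618 and 0.732 FPKM in the shGDF11 libraries. The controls were tightly grouped and every shGDF11 library was below 50% of the lowest of them. The means were 1.55 ± 0.0396 and 0.67 ± 0.0576 FPKM, or 43.2% of control, the lowest share among the 10 genes. The log2 fold change was -0.81 ± 0.117 (SE; limma adjusted p = 0.0034), a value damped by the pseudocount because the gene is scarce. The test of the reads themselves (limma voom, on 103 to 106 reads in control and 42 to 49 in shGDF11) gave -1.21, with an adjusted p of 0.0004 and a range over 19 alternatives up to 0.02. Grem1 (ENSMUSG00000074934) is at chr2:113746164-113758646, minus strand.

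Bmper was at 6.52, 5.81 and 6.09 FPKM in control and at 4.58, 4.41 and 4.27 FPKM in shGDF11. Every shGDF11 library was below every control, and the spread within each group was small. The means were 6.14 ± 0.357 and 4.42 ± 0.157 FPKM, or 72.0% of control, with a log2 fold change of -0.43 ± 0.0724 (SE; limma adjusted p = 0.0061). This share was close to that of Id1. Bmper (ENSMUSG00000031963) is at chr9:23223076-23485200, plus strand. Grem1, Bmper and Id1 were lower in the same 3 libraries as the summed cardiomyocyte, endothelial, smooth muscle and macrophage markers. Id2 was higher where the summed fibroblast and epicardial markers were, with the values given above. Any 2 quantities that separate the 2 groups coincide in this way, and a link was not tested. The cardiomyocyte sums nearly touched, at 4290 FPKM in the lowest control and 4270 FPKM in the highest shGDF11 library.

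The upstream windows of both genes are shown because they fell together yet share no match: Grem1 holds GGCGCC at 78 bases and GTCTG, on the other strand, at 219 bases before the start (capitals), and Bmper holds none of the 4 motifs. The Grem1 window is chr2:113758649-113758898 on the minus strand and the Bmper window chr9:23222826-23223075 on the plus strand, both GRCm38.p6 from RefSeq and printed 5′ to 3′. A match describes letters only, and a window without one says nothing about binding.
Grem1: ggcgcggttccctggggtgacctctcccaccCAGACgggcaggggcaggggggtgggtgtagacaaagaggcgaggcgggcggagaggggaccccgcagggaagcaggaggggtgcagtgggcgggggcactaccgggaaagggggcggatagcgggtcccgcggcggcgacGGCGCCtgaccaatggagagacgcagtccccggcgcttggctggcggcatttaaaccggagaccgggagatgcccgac
Bmper: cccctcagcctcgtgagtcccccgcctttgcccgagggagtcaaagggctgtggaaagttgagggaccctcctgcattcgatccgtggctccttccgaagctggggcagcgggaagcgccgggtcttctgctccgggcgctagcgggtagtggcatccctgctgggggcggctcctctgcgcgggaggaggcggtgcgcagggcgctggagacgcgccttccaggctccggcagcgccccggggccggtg

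The remaining target genes were not called. Bambi, the most abundant of the 10 in control, was at 27.1, 23.5 and 23.9 FPKM in control and 24.0, 22.4 and 22.2 FPKM in shGDF11. The groups overlapped, at 1806 to 2147 reads per library. Its log2 fold change was -0.12, with a 95% interval of -0.29 to 0.06 (limma adjusted p = 0.29). The deposited table places it at chr18:3507957-3516404, plus strand.

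Atoh8 (chr6:72206177-72235577, minus strand) was at 8.73, 7.30 and 6.43 FPKM in control and 7.36, 7.11 and 8.09 FPKM in shGDF11. The control libraries spanned all shGDF11 libraries, and the means of 7.49 ± 1.16 and 7.52 ± 0.506 FPKM were nearly equal. Its log2 fold change was 0.01 (95% interval -0.26 to 0.28, limma adjusted p = 0.94), and its sign turned without control replicate 3 or shGDF11 replicate 3.

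Msx1 (chr5:37820485-37824583, minus strand) was at 1.15, 1.05 and 1.27 FPKM in control and 0.924, 0.690 and 1.12 FPKM in shGDF11. Only shGDF11 replicate 3 reached the control range. Its log2 fold change of -0.24 had an interval of -0.61 to 0.13 (limma adjusted p = 0.29), from 35 to 64 reads per library. Msx2 (chr13:53466884-53473074, minus strand) was at 0.563, 0.659 and 0.897 FPKM in control and 0.408, 0.745 and 0.945 FPKM in shGDF11. Its shGDF11 libraries held both the lowest and the highest of the 6 values. The interval of its log2 fold change, -0.54 to 0.49, leaves a rise or a fall of the size seen for Id1 undetectable at 22 to 50 reads per library (limma adjusted p = 0.94).

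**Figure D3:**
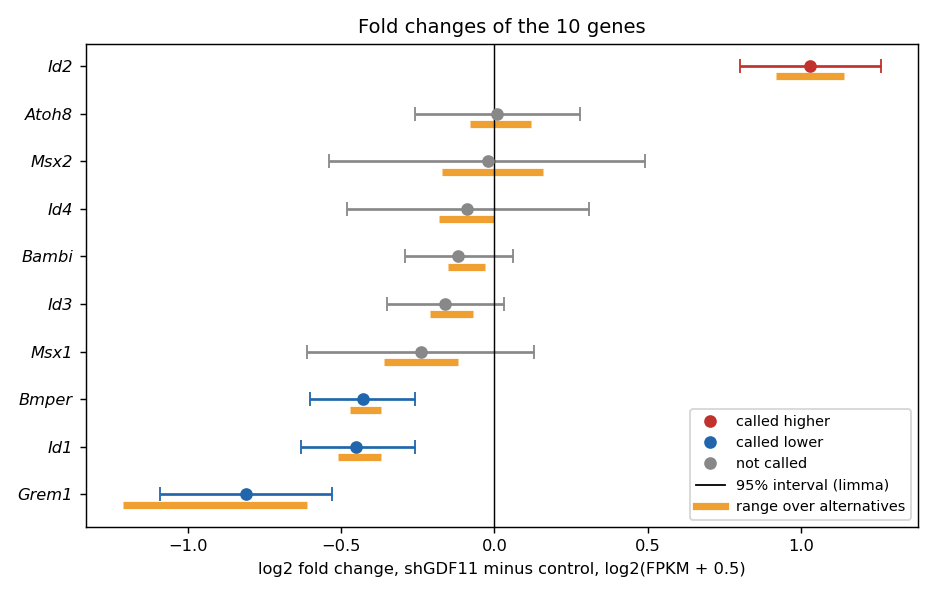
Log2 fold change of each gene, shGDF11 minus control on log2(FPKM + 0.5) (points), with its 95% interval from limma (whiskers) and the range of the fold change over the alternative settings (orange bars). Id2 lies to the right of 0 and Bmper, Id1 and Grem1 to the left, each with its whole interval, and the Grem1 range extends to -1.21.

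In control the order of levels per length was Bambi (24.8 FPKM), Id3, Id1, Id2, Atoh8, Bmper, Grem1, Msx1, Id4 and Msx2 (0.706 FPKM). Neighbours in that order whose values overlapped were Id3 and Id1, Atoh8 and Bmper, and Id4 and Msx2. In shGDF11 Id2 (22.8 FPKM) moved next to Bambi (22.9 FPKM), with overlapping values, and Grem1 moved from the seventh place to the last, where it overlapped Msx2. Against all tested genes, the control level of Bambi was at percentile 86.7, those of Id3 and Id1 at 82.3 and 80.9, and those of Id4 and Msx2 at 9.9 and 8.07.

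Patterns over the 6 libraries were compared with those of 11652 other protein-coding genes of at least 1 FPKM, by the root-mean-square difference in log2(FPKM + 0.5) after each gene's mean was removed. The measure is a description over 6 libraries that share 2 groups and their depths. The closest pattern to Id2 was that of Sema3d, a secreted semaphorin guidance cue (1.95 FPKM in control, 4.56 in shGDF11, difference 0.0118). The next was that of Ppp1r1b, which passed the limit of 1 FPKM only through shGDF11 (0.657 FPKM in control, 1.8 in shGDF11). The closest to Grem1 was that of Esam, an adhesion molecule of endothelial junctions (7.91 and 4.24 FPKM, difference 0.0275), and then that of Crct1. For Id1 the closest were Dnajb2, a co-chaperone, and Dpp7, and for Bmper Cst3, which encodes the protease inhibitor cystatin C, and Fkbp1a. Id3 was closest to Gga2 and Mus81, and Id4 to Magohb and Gm8773. Bambi was closest to Rpl7l1 and Eif4a1, Atoh8 to Itga7 and Tom1, Msx1 to Alg9 and Tldc1, and Msx2 to Mtfr2 and Pcdhgb4.

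Around these 10 genes, 69 other genes of BMP signalling and of ID partners were followed, of which 54 were tested. Of these 7 rose and 12 fell, that is 35.2% called against 27.6% of all tested genes. Their median log2 fold change was -0.12. The total of 19 was 11 without shGDF11 replicate 1 or 2. Of the falls, 7 were called when control replicate 2 or shGDF11 replicate 1 was left out and 6 when shGDF11 replicate 2 was, and of the rises 4 when shGDF11 replicate 1 was.

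Among 6 tested BMP ligands 3 fell and 1 rose, where 13.1% of all tested genes were called as lower and 14.4% as higher. Gdf6, a BMP-type ligand of skeletal patterning, fell from 8.93 ± 0.87 to 4.78 ± 0.561 FPKM (limma adjusted p = 0.0021). Bmp10, a ligand of heart muscle, fell from 1.78 ± 0.261 to 0.823 ± 0.219 FPKM (limma adjusted p = 0.013). Bmp7 rose from 4.70 ± 0.373 to 6.69 ± 0.10 FPKM. Bmp6 fell from 6.04 to 4.50 FPKM, a call lost without control replicate 2 or any 1 shGDF11 library. Bmp2 (3.47 and 3.85 FPKM) and Bmp4 (5.31 and 4.87 FPKM) were not called, and 7 ligands were below the filter. Among these 7, Bmp5 (0.31 and 0.664 FPKM) and Gdf2 (0.118 and 0.259 FPKM) were higher in every shGDF11 library than in any control. None of them was lower in every shGDF11 library. These low values were not tested by limma, and groups were apart for 45.8% of all tested genes.

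Of 10 tested receptors and co-receptors 3 fell and 0 rose, where 27.6% of all tested genes were called. Rgmb, a co-receptor gene, was close to a call as higher, at 4.01 and 4.86 FPKM (limma adjusted p = 0.052). It was called as higher under 4 of 19 alternatives, none of them with a library left out. Acvrl1 (ALK1), a type I receptor of endothelial cells, fell from 6.90 ± 0.751 to 4.21 ± 0.704 FPKM. Eng (endoglin), its co-receptor, fell from 34.3 ± 1.07 to 26.5 ± 0.703 FPKM (limma adjusted p = 0.0038). Both are known endothelial genes, and the summed endothelial markers were lower in the same libraries, but a link was not tested. Bmpr1a, the main type I BMP receptor, fell from 41.6 ± 4.88 to 31.5 ± 0.896 FPKM, a call lost without control replicate 2 or any 1 shGDF11 library. Bmpr2 (8.99 and 9.11 FPKM) and Acvr1 (9.48 and 10.3 FPKM) were not called.

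Of the 8 SMAD genes and SMAD inhibitors 2 fell. Smad7, an inhibitory SMAD, fell from 9.65 ± 2.34 to 5.19 ± 0.733 FPKM, a call lost without shGDF11 replicate 2. Smurf1, a ubiquitin ligase for SMADs, fell from 11.6 to 9.63 FPKM, a call that held when control replicate 3 was left out and for no other library. Without shGDF11 replicate 2 none of the 8 was called by limma. The BMP SMAD genes Smad1 (6.43 and 5.84 FPKM) and Smad5 (10.9 and 10.5 FPKM) were not called, nor was the inhibitory Smad6 (10.7 ± 1.81 and 9.40 ± 0.922 FPKM), itself a BMP target.

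Of 9 other tested antagonists and binding proteins, Vwc2 rose and Fstl3 fell. Vwc2, which encodes brorin, a secreted BMP antagonist, rose from 0.611 ± 0.0992 to 2.24 ± 0.0475 FPKM (limma adjusted p = 0.00075). Fstl3, an antagonist mainly of activins and GDF ligands, fell from 2.62 ± 0.103 to 0.826 ± 0.189 FPKM (limma adjusted p = 0.0012). Nog, which encodes noggin, was not called, with means of 2.17 ± 0.286 and 2.04 ± 0.329 FPKM. So of the called genes of secreted antagonists and binding proteins, Grem1, Bmper and Fstl3 were lower and Vwc2 was higher. Bmper is a regulator rather than a plain antagonist, and 27.6% of all tested genes were called.

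Of 12 other target genes 4 rose and 2 fell, where 14.4% of all tested genes were called as higher and 13.1% as lower. As with Id2 and Id1 the calls went both ways, which was also so over all tested genes. Of the rises, Dlx5 and Hamp were under 0.5 FPKM in control (0.446 and 0.25 FPKM) and passed the filter only through shGDF11. With a filter of 1 FPKM 2 rose and 2 fell. Dlx5, a homeobox gene, rose from 0.446 ± 0.0884 to 1.49 ± 0.0143 FPKM, and Hey2, a bHLH repressor of ventricular muscle, from 2.56 ± 0.38 to 5.27 ± 0.39 FPKM (limma adjusted p = 0.0020 and 0.0018). Tbx20, a cardiac T-box factor, rose from 26.3 to 35.6 FPKM, a call lost without shGDF11 replicate 1 or 2. Hamp, the gene of the iron hormone hepcidin, was called as higher on very few reads, at 1, 1 and 3 in the control and 9, 4 and 6 in the shGDF11 libraries. The call was lost without control replicate 1 or 2 or shGDF11 replicate 3, and in limma voom on recovered reads. Hes1, a bHLH repressor, fell from 19.1 to 13.8 FPKM, a call lost without shGDF11 replicate 1. Nkx2-5, a cardiac homeobox gene, fell from 85.1 to 59.2 FPKM, a call lost without control replicate 1 or 2 or shGDF11 replicate 2 or 3. With shGDF11 replicate 1 left out 2 of these genes were called as higher, and with control replicate 2 or any 1 shGDF11 library left out 1 was called as lower. Whether these listed target genes followed BMP signalling in these cells was not tested.

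Of 9 tested bHLH partners of ID proteins 1 rose and 1 fell. Of the E protein genes, Tcf12 (HEB) rose from 4.97 ± 0.25 to 6.28 ± 0.289 FPKM, a call lost without any 1 shGDF11 library. Tcf3 (14.9 ± 1.57 and 14.3 ± 1.59 FPKM) and Tcf4 (3.02 ± 0.237 and 2.79 ± 0.0499 FPKM) were not called. Tal1, a bHLH factor of blood and endothelium, fell from 1.32 to 0.64 FPKM, a call lost without control replicate 1 or 2 or shGDF11 replicate 1 or 2.

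**Figure D4:**
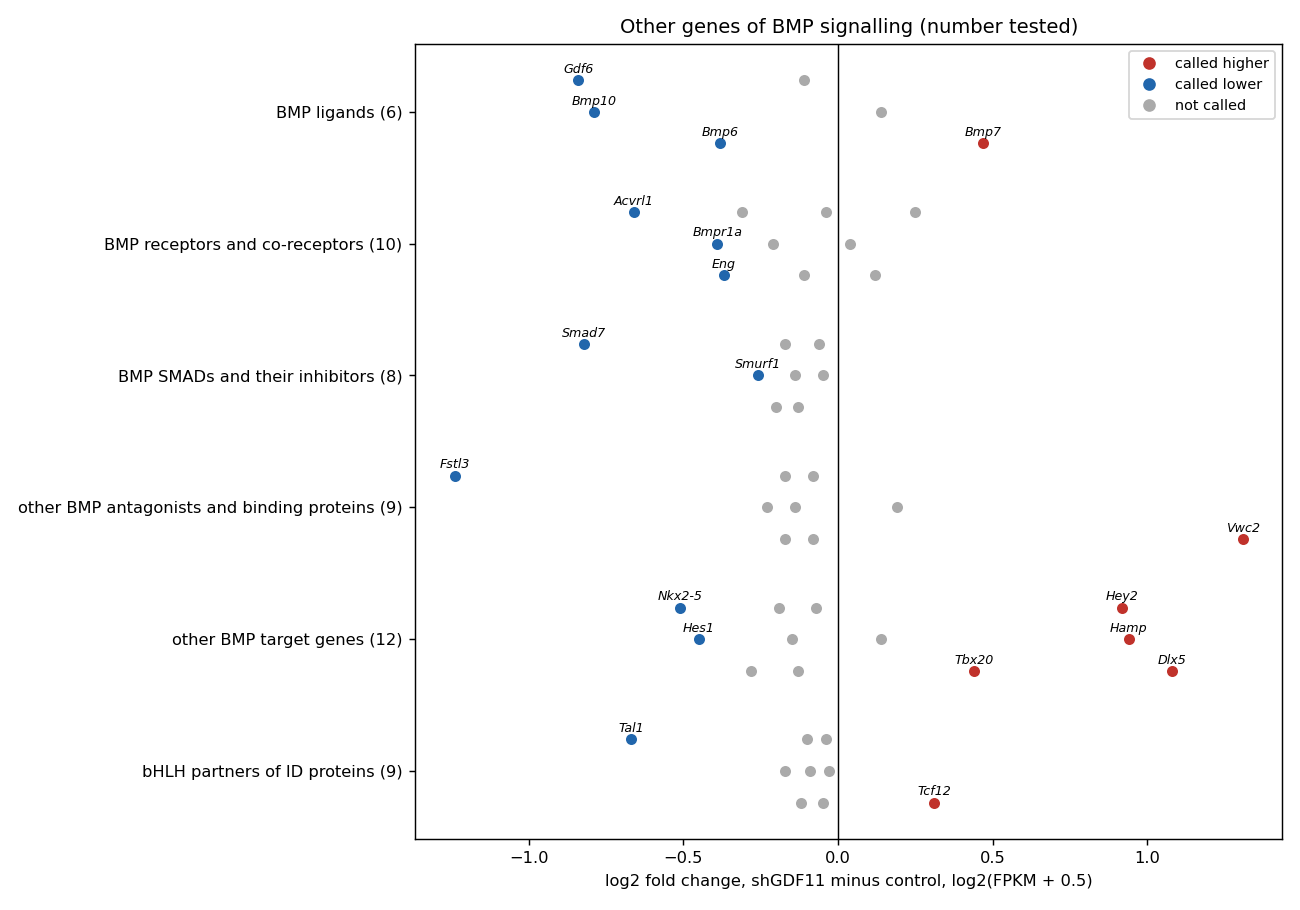
Log2 fold change, shGDF11 minus control on log2(FPKM + 0.5), of the 54 tested genes of BMP signalling and ID partners, 1 row of points per group with the number tested in parentheses (vertical offsets only separate points). Coloured and named points were called by limma over all 6 libraries; receptors and SMAD genes hold no called rise, and Vwc2 and Fstl3 lie farthest from 0.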

How the data were processed

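The authors deposited 1 table that gives FPKM (fragments relative to gene length and depth) of 54532 genes in 6 libraries. Per the submitters' processing notes, the tools were featureCounts 1.5.0-p3, HISAT2 2.0.5 and CASAVA 1.8, with GRCm38 and mm10 listed as builds and no role given for any. Strand use in counting is not given in the sources used here. Samples were grouped by their treatment label. Reads were recovered as FPKM times gene length, divided by a step fitted in each library so that the values were whole numbers. With that step 100% of positive values lay within 0.05 reads of a whole number. Intervals cover the spread between libraries.

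The 2 groups were compared by limma 3.58.1 in R 4.3.3 (two-sided, eBayes with trend) on log2(FPKM + 0.5), for genes averaging 0.5 FPKM or more, with Benjamini-Hochberg adjustment over all 15418. Fold changes on this scale understate those of low genes. Limma voom on recovered reads was an alternative, as were pseudocounts of 0.1 and 1, other filters, scalings and variance models, leaving out each library, and a block for replicate number. Same-numbered samples were not paired: their deviations correlated by -0.052 to 0.015.

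The 10 genes and the lists were chosen with earlier results of these data known. Beyond the 10, the text names the called genes of each pathway list, up to 6 by smallest p, with Bmpr1a, Bmpr2, Acvr1, Smad1, Smad5, Smad6, Smad7, Nog, Bmp2, Bmp4, Tcf3, Tcf4 and Tcf12 whatever their test, and the 2 genes of the most similar pattern for each member. Rgmb, Bmp5 and Gdf2 were added after their values were seen. Promoter sequences are from RefSeq (GRCm38.p6). Of 54495 identifiers found in GENCODE M21 (GRCm38), 53548 had the same coordinates there. The 6 per-sample columns were all used.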

Additional observations from a re-analysis of the deposited data

How the results depend on the processing

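The calls of Id1, Id2 and Bmper were made under all 20 alternatives and that of Grem1 under all 19 that could test it (a mean of at least 5 FPKM leaves it out). Their adjusted p ran up to 0.037, 0.0072, 0.03 and 0.02. Id3, Id4, Bambi, Atoh8, Msx1 and Msx2 were called under none. Signs turned only among these uncalled genes: Atoh8 was at -0.08 and -0.04 without control replicate 3 or shGDF11 replicate 3 (-0.08 to 0.12 over the libraries left out), Id4 at 0.00 with library quality weights, and Msx2 at 0.03 after rescaling to TPM and at 0.09 and 0.16 without control replicate 3 or shGDF11 replicate 1 (-0.17 to 0.16 over the libraries left out). Of all genes, 2346 to 4238 were called without 1 library (1263 to 2252 higher, 1083 to 1986 lower), against 4253 (2227 and 2026) with all, and 2722, 2346 and 2535 without shGDF11 replicates 1, 2 and 3. With a filter of 5 FPKM 1474 genes were higher, and after rescaling to TPM 1242 were lower and 66.3% of calls were higher, against 52.4%. Of the pathway genes, 11 to 20 were called without 1 library (4 to 7 higher, 6 to 13 lower), and 12 (3 higher) with the 5 FPKM filter, where fewer genes were tested. Limma voom on recovered reads called 5068 genes in all. With the replicate number as a block, 3223 of all genes and 15 pathway genes were called, against 4253 and 19, and the 4 calls among the 10 genes were made as before; same-numbered samples share only a number. The Id2 to Id1 ratio differed by 1.36 to 1.67 (log2) without 1 library. At 22 to 64 reads per library, a fall of the size seen for Id1 lies within the intervals of Id4, Msx1 and Msx2 and was not detectable.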

Other observations

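The nearest tested gene on each side of each of the 10 genes was looked up after their values were seen. Of these 20 neighbours 6 were called as higher and 4 as lower, where 27.6% of all tested genes were called. Those of the 4 called genes come first. Cox4i2, a subunit isoform of cytochrome c oxidase 16.8 kb from Id1, fell from 15.7 to 7.57 FPKM (log2 fold change -0.99, limma adjusted p = 0.0037, called under all 20 alternatives). On the other side H13 lay 27.6 kb away at 10.2 and 8.61 FPKM, called as lower, but under 11 of 20 alternatives and, with 1 library left out, only where that was control replicate 3. Arhgap11a, a mitotic GTPase-activating protein gene 72.8 kb from Grem1, rose from 8.52 to 13.1 FPKM, opposite to Grem1, and was called under all 20 alternatives. Fmn1, 29.4 kb away on the other side of Grem1, was not called (1.47 and 1.16 FPKM). On the 2 sides of Id2, Kidins220 lay 30.6 kb away (29.4 and 34.1 FPKM) and Rnf144a 1200 kb away (1.39 and 1.96 FPKM). Both were called as higher, but under 10 of 20 and 12 of 19 alternatives. The Kidins220 call was lost without any 1 library, and the Rnf144a call without any 1 except control replicate 1. Neither neighbour of Bmper, Bbs9 (335 kb away) or Dpy19l1 (927 kb away), was called. Beside the uncalled genes, Rnf144b (1010 kb from Id4), St3gal5 (51.6 kb from Atoh8) and E130119H09Rik (439 kb from Msx2) were called as higher. E2f2 (26.6 kb from Id3) and Stx18 (214 kb from Msx1) were called as lower. Of these neighbours of uncalled genes, only Rnf144b was called under all its alternatives.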
